A study of Mus musculus with 6 samples.

Results

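The genes described here build, sense and break down cyclic AMP in the heart, together with the adrenergic receptors that feed the pathway. Members were all genes whose symbol matched the adenylyl cyclases (Adcy), phosphodiesterases (Pde), protein kinase A subunits (Prkaca, Prkacb, Prkar1 and Prkar2), A-kinase anchoring proteins (Akap), alpha and beta adrenergic receptors (Adra, Adrb) or the cyclic AMP-activated exchange factors Rapgef3 and Rapgef4, and that had an array row annotated to that gene alone. Of 19938 genes tested, 58 were members. Where a gene had several rows, the row of highest mean over the 6 arrays stood for it.

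RNA came from hearts of male mice of the inbred FVB strain, 1 heart per array on the Affymetrix Mouse Gene 1.0 ST platform. The A2a-R transgenic group (n = 3) over-expressed the adenosine A2a receptor from a cardiac-specific, inducible transgene, and the wild-type group (n = 3) were littermates. Both groups underwent transverse aortic constriction (TAC), a surgical narrowing of the aorta that puts a pressure load on the left ventricle, at 8 weeks of age, and hearts were taken 14 weeks later. The sources used here name neither the promoter that drove the transgene nor the timing of its induction. Unoperated hearts were not analysed here, so an effect of the transgene alone and one that needs the pressure load cannot be told apart. No row annotated to the A2a receptor gene was analysed here, so over-expression was not checked on these arrays. The beta adrenergic receptors, Adra1a, Adra1d, Adra2a, Adra2b, Prkaca, Akap2, Akap17a and Rapgef4 had no row annotated to them alone among those analysed here.

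Cyclic AMP is made from ATP by adenylyl cyclases when a stimulatory G protein is switched on, as happens downstream of beta adrenergic receptors and of the A2a receptor, and inhibitory G proteins restrain it. It releases the catalytic subunits of protein kinase A (PKA) from their regulatory subunits, opens pacemaker channels and activates the exchange factors Epac1 and Epac2, and in the ventricle PKA speeds and strengthens contraction by phosphorylating calcium-handling and sarcomere proteins. Phosphodiesterases end the signal, and A-kinase anchoring proteins hold PKA, phosphodiesterases and their targets together in small compartments.

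Values are log2 expression values after RMA, so a difference of 1 is a doubling, and differences are transgenic minus wild type from limma with its moderated standard error (SE). A gene was called when its p-value, adjusted by Benjamini-Hochberg over 21789 rows, was below 0.05. The largest differences lay among the phosphodiesterases and ran both ways: Pde3a rose in the transgenic hearts and was the single member called, while Pde7b, Pde3b, Pde4d, Pde5a and Pde1c stood at 0.25 to 0.34 and Pde11a at -0.45 without passing. Cyclases, PKA subunits, anchoring proteins and receptors all lay between -0.22 and 0.15. The 1 called member of 58 compares with 0.993% of all genes tested (198 of 19938), and with 0.547% called higher, so the members' count of calls was near the background. At a looser adjusted p below 0.10 there were 4 members, against 2.22% of all genes. At an unadjusted p below 0.05 there were 12 members, 7 higher and 5 lower, or 20.7% against 14.6% of all genes (6.32% higher and 8.26% lower). The 3 transgenic values did not overlap the 3 wild-type values in 16 members, 8 in each direction, or 27.6% against 20.2% of all genes (7.79% higher and 12.4% lower). Of all members 25 lay above and 33 below 0, beside 45.3% and 54.7% of all genes, and the median log2 difference was -0.01 for the members and -0.01 for all genes.

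**Figure D1:**
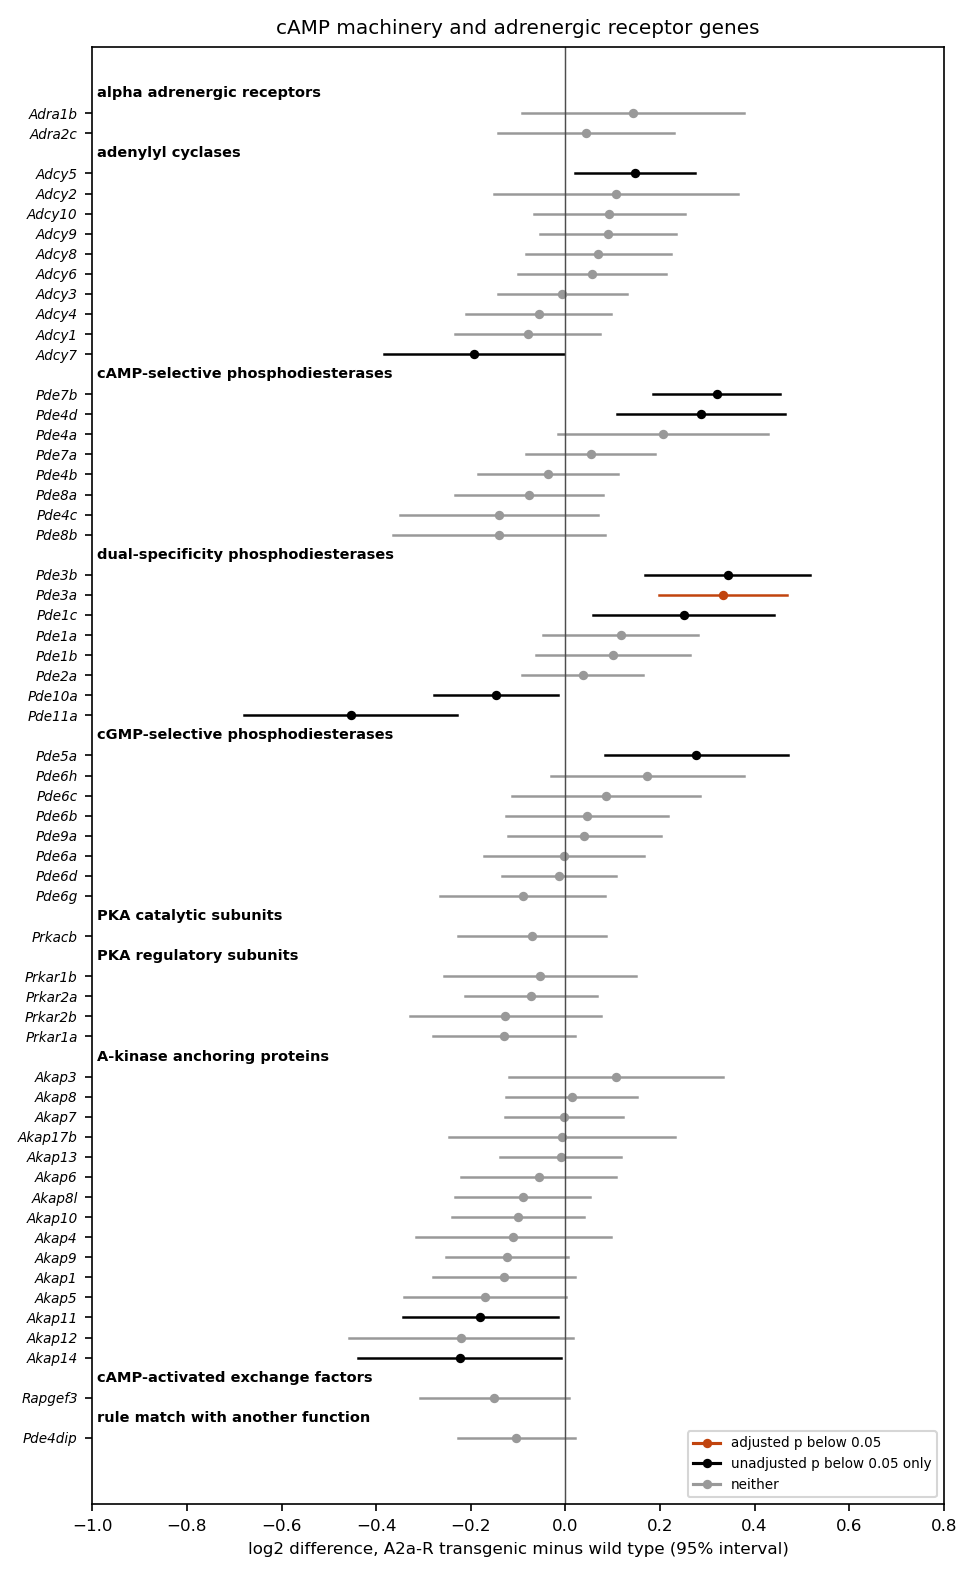
Log2 difference (transgenic minus wild type, horizontal axis) of each of the 58 members with its 95% interval from limma, grouped by role and sorted within a role. Pde3a, in colour, is the single member past the adjusted threshold, at 0.33; black marks the other 11 members with an unadjusted p below 0.05, and all intervals but that of Pde11a lie within a 1.5-fold change either way.

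The 95% interval of the difference lay within a 1.5-fold change in either direction for 57 of the 58 members. The exception was Pde11a, whose interval ran from -0.68 to -0.23. The 3 animals per group limit the precision: the median SE of a member's log2 difference was 0.07. Of the members, 14 were among the dimmest 40% of rows, where the array separates signal from background poorly, and 1 of those had an unadjusted p below 0.05 (Akap14).

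Whole hearts hold several cell types, and for every gene below fewer cells of a type and less RNA per cell cannot be told apart. Ventricular myocyte markers were bright in all hearts, with a mean over 8 markers of 13.6 to 13.7 on the log2 scale, and 0 of the 8 were called in limma or had an unadjusted p below 0.05. Of 9 macrophage and monocyte markers all 9 were higher, 1 of them called (Lgals3), and their mean log2 value was 8.89 to 8.99 in transgenic against 8.52 to 8.65 in wild-type hearts. Of 8 smooth muscle and pericyte markers 5 were higher, 1 of them called (Acta2), with a mean of 9.62 to 9.66 in transgenic against 9.46 to 9.56 in wild-type hearts. That separation rested on Acta2 at 0.73: without it the mean over the other 7 was 9.35 to 9.37 in transgenic and 9.28 to 9.36 in wild-type hearts, which overlap. Of 6 atrial myocyte markers 5 lay below 0 and 1 above. Nppa, the natriuretic peptide gene that the loaded ventricle also expresses, fell, with a log2 difference of -1.18 (limma adjusted p = 0.0456). It alone of those 5 had an unadjusted p below 0.05. Tbx5 went the other way, at 0.34 ± 0.08 with groups that did not overlap (limma adjusted p = 0.121). The atrial mean overlapped, at 8.75 to 9.29 in transgenic and 8.90 to 9.50 in wild-type hearts. In the fibroblast, endothelial, lymphocyte, fat and nerve lists 0 markers were called and the means of the groups overlapped. Of 8 endothelial markers 1, Kdr, had an unadjusted p below 0.05, and it was lower. Of 8 T, B and NK cell markers 3 had one, 2 higher and 1 lower, and 6 of the 8 were among the dimmest 40% of rows. The part of these marker values in the results below was not tested. Wild-type replicate 1 was the wild-type heart farthest from its group mean in 27 of 58 members (46.6%, against 41.7% of all genes), and transgenic replicate 2 was the farthest of its group in 24 (41.4%, against 39.9% of all genes).

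The phosphodiesterases that hydrolyse cyclic AMP held the members with the clearest differences. Pde3a, the cyclic GMP-inhibited enzyme that is the target of the inotropic drug milrinone and sits at the sarcoplasmic reticulum, had log2 values of 9.72, 9.79 and 9.67 in the transgenic hearts, against 9.35, 9.42 and 9.41 in the wild-type hearts. The lowest transgenic heart lay above the highest wild-type heart. Pde3a rose by 0.33 ± 0.06 (SE), or 1.26-fold, with a limma adjusted p of 0.0474. Its difference stayed between 0.30 and 0.36 when any 1 heart was left out, but the adjusted p then lay between 0.0943 and 0.151, so the call needed all 6 arrays. It was also lost with the arrays centred on their medians (0.0533) and when all 28853 rows of the table were fitted (0.0669). The call held under 6 of 15 alternative settings.

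Pde3b, the second cyclic GMP-inhibited enzyme, best known from fat cells, stood at 7.14, 7.36 and 7.14 in transgenic hearts, against 6.89, 6.81 and 6.91 in wild-type hearts. Again the groups did not overlap. The log2 difference was 0.34 ± 0.08 (SE), close in size to that of Pde3a, with a limma adjusted p of 0.095. Pde7b, a cyclic AMP-specific enzyme that PDE4 inhibitors such as rolipram do not block, had 10.36, 10.38 and 10.41 in transgenic hearts, against 10.11, 10.09 and 9.99 in wild-type hearts. Its transgenic hearts were tightly grouped and all above the wild-type hearts, with a difference of 0.32 ± 0.06 and a limma adjusted p of 0.0534, next to the threshold. Pde7b was called under 5 of 15 alternative settings, with adjusted p between 0.0063 and 0.0395, and in none of the 6 fits without 1 heart (0.101 to 0.162). Among the other members not called in the main fit, Pde11a was called under 2 of the 15, and Pde3b and Pde4d under 1 each. Its relative Pde7a differed by 0.05 ± 0.06.

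The PDE4 enzymes are the rolipram-sensitive, cyclic AMP-specific family that controls beta adrenergic signals in rodent myocytes, and its 4 genes did not share a direction. Pde4d, whose product associates with the ryanodine receptor and the beta-arrestins, had 9.77, 9.81 and 9.65 in transgenic hearts, against 9.34, 9.46 and 9.57 in wild-type hearts. These groups did not overlap, with a gap of 0.08 between transgenic replicate 3 and wild-type replicate 3. The difference was 0.29 ± 0.08 (limma adjusted p = 0.15). Pde4d had 2 further rows, which disagreed. A row of mean 7.66 stood at 0.29 ± 0.18 and overlapped, with transgenic replicate 2 at 8.28 and the other transgenic hearts at 7.65 and 7.49. A dim row of mean 5.85, matched to a single cDNA record, stood at -0.23 ± 0.08, with separate groups on the lower side. With the mean of all rows of a gene in the fit, the Pde4d difference was 0.11 (limma adjusted p = 0.623). Pde4a had 8.95, 9.11 and 8.95 in transgenic hearts, against 8.59, 8.89 and 8.91 in wild-type hearts. Wild-type replicate 1 was the low heart here, and the difference of 0.21 ± 0.10 became 0.10 ± 0.07 without it (limma adjusted p = 0.371 and 0.575). Pde4b, which regulates the L-type calcium channel in mouse hearts, overlapped at 8.92, 9.01 and 9.08 in transgenic hearts, against 9.10, 9.02 and 9.0 in wild-type hearts. Its difference was -0.04 with a 95% interval of -0.19 to 0.11, and its sign turned when the arrays were quantile-normalised once more (0.01). Pde4c differed by -0.14 ± 0.09.

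**Figure D2:**
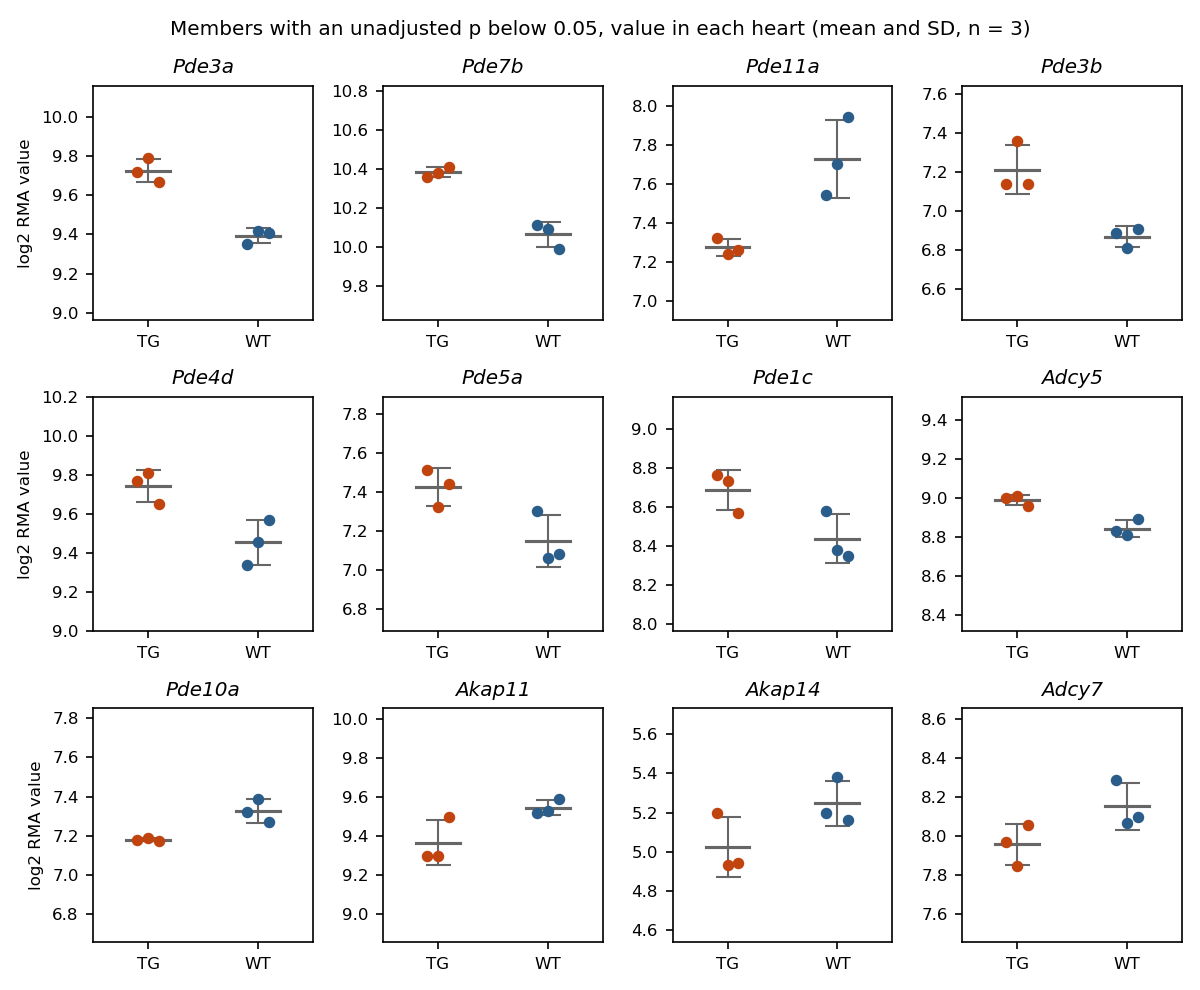
Log2 value of each heart for the 12 members with an unadjusted p below 0.05, transgenic (TG) left of wild type (WT), with the group mean and SD (n = 3); all panels span 1.2 log2 units. Groups do not overlap in any panel but those of Pde1c and Akap14, and Pde11a shows the widest wild-type spread, from 7.54 to 7.94.

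Pde11a and Pde10a, dual-specificity enzymes that hydrolyse both cyclic nucleotides, stood lower. Pde11a had 7.32, 7.24 and 7.26 in transgenic hearts, against 7.54, 7.70 and 7.94 in wild-type hearts. The transgenic hearts were within 0.08 of each other while the wild-type hearts spread over 0.40, and the groups did not overlap. Its log2 difference of -0.45 ± 0.10 (SE) was the largest in size among the members, with a limma adjusted p of 0.0892; it was -0.35 without wild-type replicate 3 and -0.55 without wild-type replicate 1. Pde10a, an enzyme best known from the striatum, had 7.18, 7.19 and 7.17 in transgenic hearts, against 7.32, 7.39 and 7.27 in wild-type hearts. Here too all transgenic hearts were below all wild-type hearts, by a small margin, with a difference of -0.15 ± 0.06 (limma adjusted p = 0.289).

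The calcium and calmodulin-activated PDE1 genes were all on the higher side without passing. Pde1c, a form found in cardiac myocytes, had 8.76, 8.73 and 8.57 in transgenic hearts, against 8.58, 8.38 and 8.35 in wild-type hearts. Transgenic replicate 3 and wild-type replicate 1 overlapped by 0.01, and the difference was 0.25 ± 0.08 (SE, limma adjusted p = 0.227). Pde1a and Pde1b stood at 0.12 ± 0.07 and 0.10 ± 0.07. Pde2a, which cyclic GMP stimulates and which has been found raised in failing human hearts, had 9.40, 9.43 and 9.33 in transgenic hearts, against 9.36, 9.35 and 9.34 in wild-type hearts. Its groups overlapped, and the 95% interval of its difference, -0.09 to 0.16, leaves out a change of the size seen in Pde3a.

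Among the cyclic GMP-selective genes, Pde5a, the target of sildenafil, had 7.51, 7.32 and 7.44 in transgenic hearts, against 7.30, 7.06 and 7.08 in wild-type hearts. Its groups were separated by 0.02, between transgenic replicate 2 and wild-type replicate 1, and the difference was 0.28 ± 0.08 (SE, limma adjusted p = 0.193). Pde9a, which also spares cyclic AMP, differed by 0.04 ± 0.07. The 6 Pde6 genes, which encode the photoreceptor enzyme, its inhibitory subunits (Pde6g, Pde6h) and a carrier of lipid-modified proteins (Pde6d), lay between -0.09 and 0.17. The cyclic AMP-specific pair Pde8a and Pde8b stood at -0.08 ± 0.07 and -0.14 ± 0.10.

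Taking the 24 phosphodiesterase genes as a class, 15 were higher and 9 lower, with a median log2 difference of 0.05 and a range of -0.45 to 0.34. Of the 24, 8 had an unadjusted p below 0.05 (6 higher, 2 lower), or 33.3% against 14.6% of all genes, and 1 was called. The 24 were brighter than genes at large: 20 lay outside the dimmest 40% of rows, against 11845 of 19938 genes. Among all 58 members 44 did. The part of brightness in these shares was not tested. The remaining 34 members had a median of -0.06, with 10 higher and 24 lower, and 4 of them (11.8%) had an unadjusted p below 0.05. No test was made of the difference between the classes. With the arrays centred on their medians, which moved the members' median to 0.01, the phosphodiesterases split into 17 higher and 7 lower, the remaining members into 14 and 20, and all 58 members into 31 and 27 in place of 25 and 33.

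**Figure D3:**
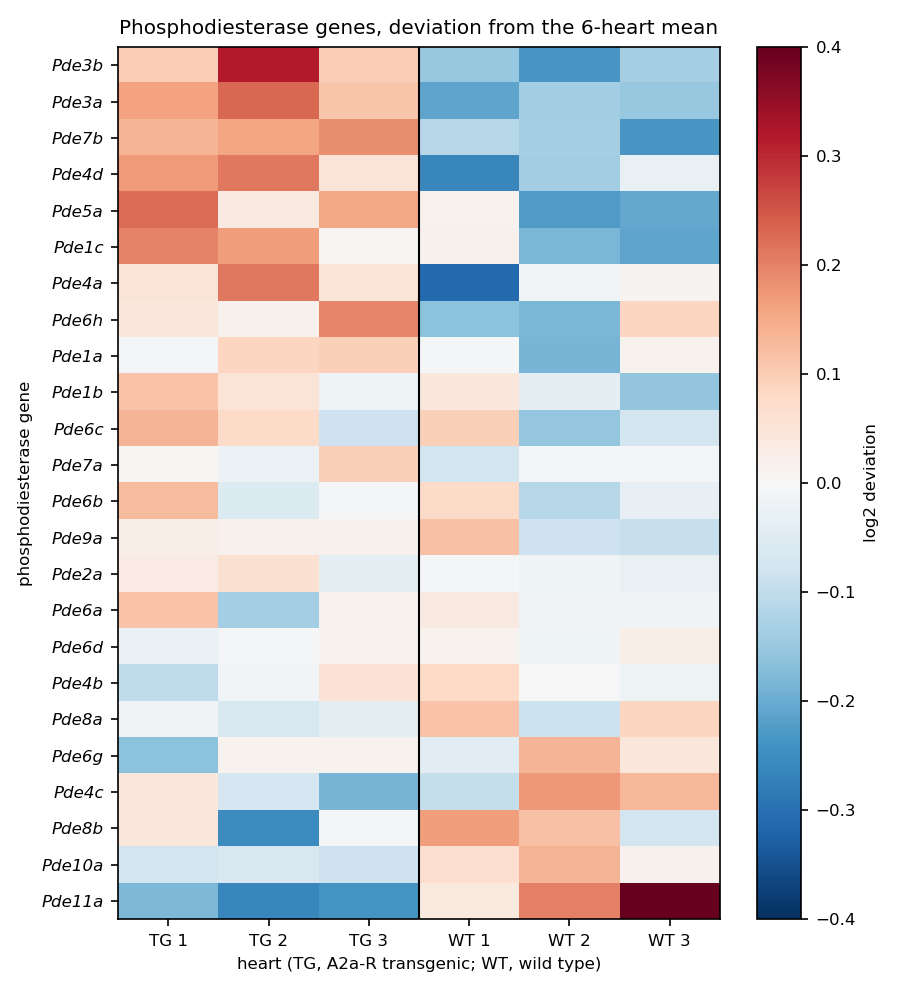
Deviation of each heart from the 6-heart mean (log2, colour) for the 24 phosphodiesterase genes, rows sorted by the transgenic minus wild-type difference, transgenic hearts left of wild-type hearts. Pde3b, Pde3a, Pde7b and Pde4d head the plot with all 3 transgenic hearts above the mean, and Pde11a closes it at -0.45, with wild-type replicate 3 the brightest cell.

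**Figure D4:**
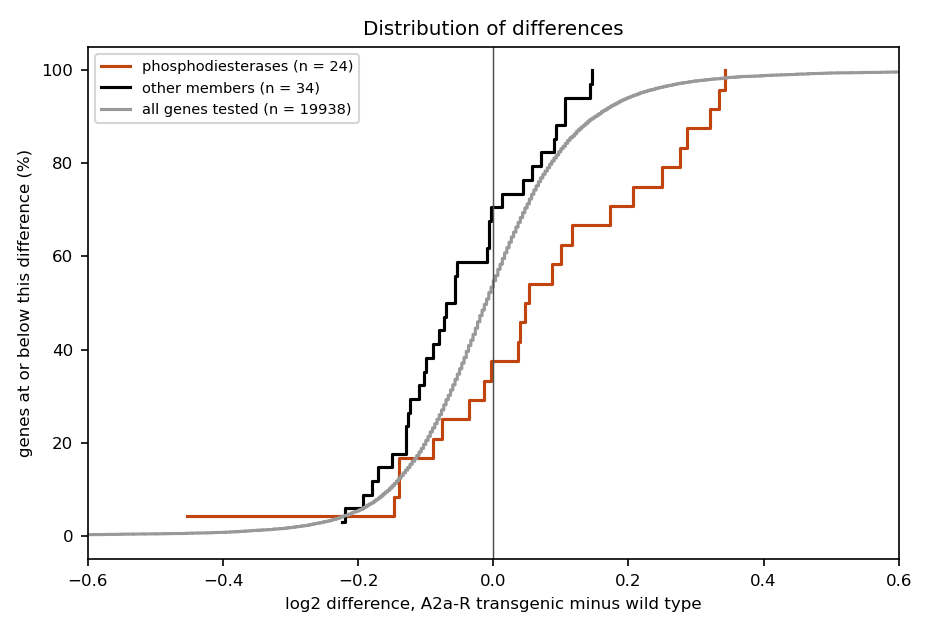
Share of genes (vertical axis, percent) at or below a given log2 difference, transgenic minus wild type (horizontal axis), for the 24 phosphodiesterase genes, the other 34 members and all 19938 genes tested. The phosphodiesterase curve lies to the right of all genes over most of its course (median 0.05 against -0.01) and the other members slightly to the left (median -0.06).

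None of the 10 adenylyl cyclase genes passed in limma, and 2 had an unadjusted p below 0.05, or 20% against 14.6% of all genes. Of the 10, 6 lay above and 4 below 0, beside 45.3% and 54.7% of all genes. Adcy5 and Adcy6 encode the main cyclases of the cardiac myocyte. Adcy5 had 9.0, 9.01 and 8.96 in transgenic hearts, against 8.83, 8.81 and 8.89 in wild-type hearts. Its groups did not overlap, with a difference of 0.15 ± 0.06 (SE), or 1.11-fold, and a limma adjusted p of 0.272. Adcy6 overlapped, at 10.21, 10.29 and 10.15 in transgenic hearts, against 10.07, 10.17 and 10.24 in wild-type hearts, and its 95% interval ran from -0.10 to 0.21. Adcy7, a cyclase prominent in blood cells, had 7.97, 7.85 and 8.06 in transgenic hearts, against 8.29, 8.07 and 8.10 in wild-type hearts. The groups were separated by 0.01, and the difference was -0.19 ± 0.08 (limma adjusted p = 0.331), or -0.125 without wild-type replicate 1. Adcy9, a cyclase that forskolin activates poorly, stood at 0.09 ± 0.06 with groups that did not overlap, Adcy4 at -0.06 ± 0.07 and Adcy3, the olfactory cyclase, at -0.01 ± 0.06. The soluble, bicarbonate-activated Adcy10 and the neuronal Adcy1, Adcy2 and Adcy8 were all among the dimmest 40% of rows and lay between -0.08 and 0.11.

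Only 2 adrenergic receptor genes had a row of their own, both of the alpha class, so the beta receptors, the main entry to cyclic AMP in the myocyte, were not analysed here. Adra1b, a receptor coupled to phospholipase C rather than to cyclic AMP, had 7.68, 7.92 and 7.60 in transgenic hearts, against 7.43, 7.66 and 7.68 in wild-type hearts. The groups overlapped and the difference of 0.14 ± 0.10 (SE, limma adjusted p = 0.573) was close to the SD within either group, 0.17 and 0.14. It was 0.05 without transgenic replicate 2 and 0.06 without wild-type replicate 1. Adra2c, which restrains noradrenaline release from sympathetic nerve endings, was dim and differed by 0.04 ± 0.08.

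All 5 PKA subunit genes with a row of their own lay slightly below 0, also under both other scalings, with differences between -0.13 and -0.05. Of all genes, 54.7% lay below 0. In limma 0 of the 5 were called and 0 had an unadjusted p below 0.05. Prkar1a, the type I regulatory subunit, had 11.73, 11.69 and 11.74 in transgenic hearts, against 11.96, 11.78 and 11.81 in wild-type hearts. These groups did not overlap, but wild-type replicate 1 stood well above the rest: the difference was -0.13 ± 0.07 (SE, limma adjusted p = 0.411) and -0.075 without that heart. Prkar2a, the type II regulatory subunit that most anchoring proteins bind, had 9.89, 9.93 and 9.78 in transgenic hearts, against 9.95, 9.95 and 9.92 in wild-type hearts. The groups overlapped narrowly at -0.07 ± 0.06. Prkacb, a catalytic subunit, differed by -0.07 ± 0.07. The row that covers Prkaca, the main catalytic subunit of the heart, also covers its neighbour Samd1 and so cannot be read as Prkaca alone; it had 9.10, 9.10 and 9.01 in transgenic hearts, against 9.16, 9.18 and 9.14 in wild-type hearts.

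Of the 15 anchoring protein genes 13 lay below 0 and 2 above, with a median of -0.10, beside 54.7% of all genes below 0. With arrays centred on their medians 10 lay below and 5 above. In limma 0 were called and 2 had an unadjusted p below 0.05, or 13.3% against 14.6% of all genes. Akap11, an anchor of PKA and glycogen synthase kinase, had 9.30, 9.30 and 9.50 in transgenic hearts, against 9.52, 9.53 and 9.59 in wild-type hearts. Transgenic replicate 3 lay just below the wild-type hearts, and the difference was -0.18 ± 0.07 (SE, limma adjusted p = 0.296). Akap11 had 2 further rows, which share its transcript and so are not independent of it, at -0.24 ± 0.06 and -0.22 ± 0.06; neither was called (limma adjusted p = 0.103 and 0.129), and both separated the groups. Akap14, an anchor known from cilia, had a dim row at 5.20, 4.93 and 4.94 in transgenic hearts, against 5.20, 5.38 and 5.16 in wild-type hearts. Its groups overlapped at -0.22 ± 0.09. Akap12, a scaffold also called gravin, was at -0.22 ± 0.10.

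Of the anchors with known roles in the myocyte, Akap6 (mAKAP), which tethers PKA at the nuclear envelope, had 10.63, 10.63 and 10.76 in transgenic hearts, against 10.84, 10.66 and 10.69 in wild-type hearts. Its groups overlapped at -0.06 ± 0.07 (SE). Akap5, which couples PKA to the beta receptor and the L-type calcium channel, had 6.64, 6.71 and 6.82 in transgenic hearts, against 6.95, 6.78 and 6.95 in wild-type hearts. Transgenic replicate 3 lay above wild-type replicate 2, and the difference was -0.17 ± 0.07 (limma adjusted p = 0.343). Akap7, whose product binds phospholamban, and Akap13 stood at 0.00 and -0.01, Akap9 (yotiao), which binds the KCNQ1 channel, at -0.12 ± 0.06, and the mitochondrial Akap1 at -0.13 ± 0.07.

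Rapgef3, which encodes Epac1, had 8.55, 8.51 and 8.49 in transgenic hearts, against 8.60, 8.61 and 8.79 in wild-type hearts. The groups did not overlap, with a difference of -0.15 ± 0.07 (SE, limma adjusted p = 0.359) that was -0.09 without wild-type replicate 3. Pde4dip matches the symbol pattern but encodes myomegalin, a scaffold that binds PDE4D and not an enzyme; it stood at -0.10 ± 0.05, again with groups that did not overlap.

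The cyclic AMP response element, the palindrome TGACGTCA bound by CREB, and its short forms TGACG and CGTCA were looked up on both strands in RefSeq promoter windows of build GRCm38.p6, each running from 250 bases before to 50 bases after an annotated start. Windows were found for 48 of the 58 members (91 windows, some genes having several starts). The palindrome was in 1 of the 48 genes, Prkar1a, or 2.08%, against 2.03% of all 27025 genes in the table, and a short form, which the palindrome includes, in 16 genes (33.3% against 23.05%); per window the shares with a short form were 19.8% and 20.8%. Windows of Pde3a and Pde3b were not used here. The windows below are those of Prkar1a, which holds the palindrome 49 bases before the start, Akap11, the anchor with 3 rows on the lower side, whose window holds 3 short forms, and Pde7b and Pde4d, the members with a window that had the highest differences, which hold none; capitals mark the palindrome and short forms, and every window reads 5′ to 3′ on the strand of its gene. They lie at chr11:109650699-109650998 on the plus strand, chr14:78536811-78537110 on the minus strand, chr10:20548279-20548578 on the minus strand and chr13:108653927-108654226 on the plus strand. Of the next phosphodiesterases by difference, the windows of Pde5a and Pde1c hold none and 1 of the 3 windows of Pde4a holds a short form. Among the other lower members with an unadjusted limma p below 0.05, the windows of Pde11a, Pde10a and Akap14 hold none. A window of Adcy7 holds a short form. The Prkar1a and Akap11 windows shown were picked for their matches, so the display gives no contrast between lower and higher genes. Both genes have further windows not shown, that of Akap11 holding no match, and a match describes letters only.
Prkar1a: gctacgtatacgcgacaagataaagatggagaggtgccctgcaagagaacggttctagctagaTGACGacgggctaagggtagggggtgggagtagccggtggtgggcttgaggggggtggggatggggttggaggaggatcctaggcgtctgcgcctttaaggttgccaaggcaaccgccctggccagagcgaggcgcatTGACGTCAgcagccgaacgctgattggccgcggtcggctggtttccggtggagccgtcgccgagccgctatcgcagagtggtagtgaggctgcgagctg
Akap11: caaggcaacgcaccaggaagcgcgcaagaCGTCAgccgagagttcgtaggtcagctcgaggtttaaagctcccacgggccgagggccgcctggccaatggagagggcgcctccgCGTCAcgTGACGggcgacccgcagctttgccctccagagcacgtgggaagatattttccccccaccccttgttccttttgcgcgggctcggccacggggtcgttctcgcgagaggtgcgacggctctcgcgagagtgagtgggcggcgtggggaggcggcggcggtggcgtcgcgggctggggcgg
Pde7b: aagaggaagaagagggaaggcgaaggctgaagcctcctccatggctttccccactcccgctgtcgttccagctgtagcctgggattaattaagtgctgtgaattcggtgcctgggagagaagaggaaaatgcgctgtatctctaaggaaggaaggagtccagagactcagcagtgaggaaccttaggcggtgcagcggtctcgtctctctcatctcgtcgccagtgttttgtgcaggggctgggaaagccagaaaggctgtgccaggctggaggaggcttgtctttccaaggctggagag
Pde4d: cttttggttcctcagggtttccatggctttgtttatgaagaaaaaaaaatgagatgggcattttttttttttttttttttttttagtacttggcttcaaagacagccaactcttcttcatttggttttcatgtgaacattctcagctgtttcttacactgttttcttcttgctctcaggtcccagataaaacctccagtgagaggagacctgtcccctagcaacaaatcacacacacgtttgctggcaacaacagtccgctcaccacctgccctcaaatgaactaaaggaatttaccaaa

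Beside the members, 37 further genes of the pathway had a row of their own, out of 47 names listed. Of these 1 rose, 1 fell and 35 did not pass in limma, against 0.547% of all genes called higher and 0.446% called lower. An unadjusted p below 0.05 was found in 10 (27.0%), 5 in each direction, against 14.6% of all genes (6.32% higher and 8.26% lower). Of the 37, 33 lay outside the dimmest 40% of rows, as did 11845 of all 19938 genes. Pkia, the skeletal and cardiac muscle form of the PKA inhibitor peptide, which occupies the catalytic subunit and shuts it off, had 9.82, 9.79 and 9.84 in transgenic hearts, against 10.09, 10.22 and 10.23 in wild-type hearts. The gap between the groups was wider than the spread inside either. Pkia fell by 0.36 ± 0.06 (SE), with a limma adjusted p of 0.0388, while the other inhibitor genes Pkib and Pkig stood at 0.06 ± 0.09 and 0.05 ± 0.06. The call of Pkia held without wild-type replicate 1 and was lost without any of the other hearts (0.11 to 0.162). It was also lost with arrays centred on their medians (0.0514) and when all 28853 rows were fitted (0.058).

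**Figure D5:**
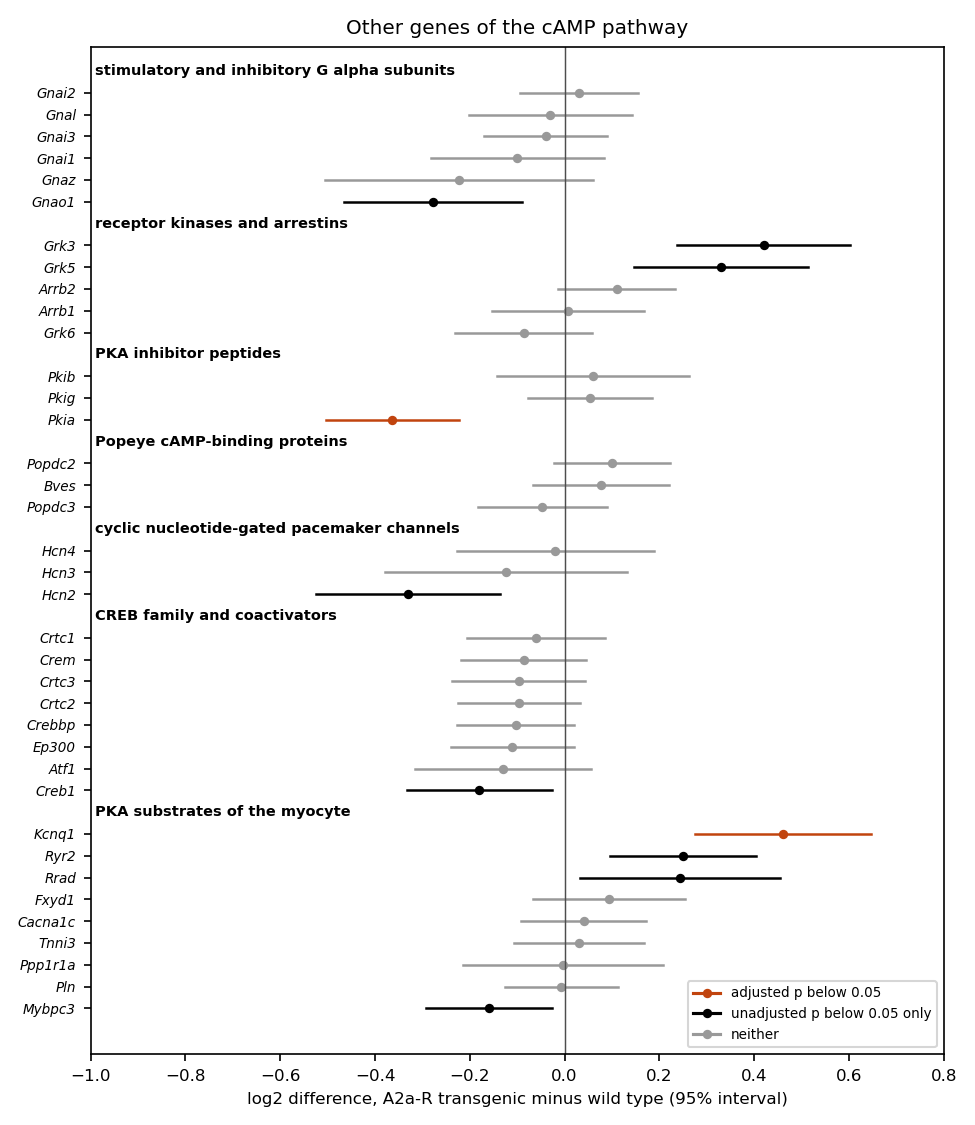
Log2 difference (transgenic minus wild type, horizontal axis) with its 95% interval from limma for the 37 further genes of the cyclic AMP pathway, grouped by role. Pkia at -0.36 and Kcnq1 at 0.46, in colour, are past the adjusted threshold. The 8 genes of the CREB group all lie left of 0, as do 54.7% of all genes tested.

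The receptor kinases switch off G protein-coupled receptors by phosphorylating them. Grk3 had 7.30, 7.37 and 7.09 in transgenic hearts, against 6.80, 6.85 and 6.85 in wild-type hearts. Its groups did not overlap, and the difference was 0.42 ± 0.08 (SE, limma adjusted p = 0.0605). Grk5, the kinase that also acts in the nucleus of the stressed myocyte, had 9.09, 9.18 and 9.03 in transgenic hearts, against 8.91, 8.65 and 8.75 in wild-type hearts. All transgenic hearts were again above all wild-type hearts, at 0.33 ± 0.08 (limma adjusted p = 0.117). Both were called when the dimmest 40% of rows were left out (0.0215 and 0.0496) and with a trended and robust prior (0.0247 and 0.0355), and Grk3 also without transgenic replicate 3 (0.0343). Grk6 and the beta-arrestin genes Arrb1 and Arrb2, whose products bind phosphorylated receptors, stood between -0.09 and 0.11.

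Among G alpha subunits, Gnao1, of the inhibitory class, had 9.74, 9.59 and 9.74 in transgenic hearts, against 10.07, 9.82 and 10.01 in wild-type hearts. The groups did not overlap, at -0.28 ± 0.08 (SE, limma adjusted p = 0.181). Gnai2, the main inhibitory subunit of the heart, differed by 0.03 ± 0.05, and the row shared by Gnas, the stimulatory subunit, and its antisense gene by -0.02 ± 0.05. Of the pacemaker channels, Hcn2 had 8.10, 8.34 and 8.24 in transgenic hearts, against 8.43, 8.65 and 8.59 in wild-type hearts. That separation gave -0.33 ± 0.08 (limma adjusted p = 0.134), while Hcn4, the sinus node form, stood at -0.02 ± 0.09. The Popeye proteins, cyclic AMP-binding membrane proteins of muscle, lay between -0.05 and 0.10.

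The 8 genes of CREB, its relatives and coactivators were all on the lower side, also under both other scalings, with differences of -0.18 to -0.06. Of all genes, 54.7% lay below 0. In limma 0 of the 8 were called and 1 had an unadjusted p below 0.05, or 12.5% against 14.6% of all genes. The groups did not overlap in 5 of the 8, all lower, or 62.5% against 20.2% of all genes (12.4% lower). All 8 lay outside the dimmest 40% of rows, and no test was made of the 8 as a group. Creb1, the factor that PKA phosphorylates in the nucleus, had 8.56, 8.52 and 8.40 in transgenic hearts, against 8.70, 8.72 and 8.60 in wild-type hearts. Its groups were separate at -0.18 ± 0.07 (SE, limma adjusted p = 0.269). Crebbp and Ep300, the acetyltransferases that CREB recruits, stood at -0.10 ± 0.05 and -0.11 ± 0.06.

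Of 9 myocyte proteins that PKA phosphorylates, Kcnq1, the pore of the slow delayed rectifier, had 9.34, 9.49 and 9.33 in transgenic hearts, against 8.80, 8.93 and 9.05 in wild-type hearts. Its groups did not overlap, and it was the only one of the 9 called, at 0.46 ± 0.08 (SE, limma adjusted p = 0.0463). The call was lost without any 1 heart (0.0663 to 0.162) and when all 28853 rows were fitted (0.0718). Ryr2, the calcium release channel, had 12.47, 12.60 and 12.48 in transgenic hearts, against 12.18, 12.33 and 12.29 in wild-type hearts. The groups did not overlap, with a difference of 0.25 ± 0.07 (SE, limma adjusted p = 0.149). Rrad, which restrains the L-type calcium channel until PKA releases it, had 10.10, 9.90 and 10.05 in transgenic hearts, against 9.95, 9.66 and 9.71 in wild-type hearts, overlapping at 0.24 ± 0.09. Mybpc3, cardiac myosin-binding protein C, had 12.86, 12.85 and 12.94 in transgenic hearts, against 13.04, 13.00 and 13.09 in wild-type hearts. It was separate but small at -0.16 ± 0.06 (limma adjusted p = 0.262). Pln, which encodes phospholamban, Tnni3, cardiac troponin I, and Cacna1c, the L-type channel, stood at -0.01, 0.03 and 0.04.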

How the data were processed

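RNA of 6 hearts was measured on Affymetrix Mouse Gene 1.0 ST arrays, from 100 ng of total RNA per the labels. The deposited table holds log2 values, made by the authors with RMA and Partek per the submitters' processing notes; no source used here gives versions. RMA brings the arrays' distributions close together, so a global change in RNA is not visible, and compresses fold changes of dim rows. The deposited distributions were not identical. Their SD over rows was 2.05 to 2.07 in transgenic and 2.08 to 2.10 in wild-type arrays. A further quantile normalization split the members into 29 higher and 29 lower, in place of 25 and 33. The part of this SD difference in the small shifts above was not tested. Rows of the value table numbered 28853; 21789 carried exactly 1 symbol in the platform annotation and were tested, 1621 carried several and 5443 none.

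Each row was fitted with limma 3.58.1 in R 4.3.3 (lmFit and eBayes, default prior, no covariate), with Benjamini-Hochberg adjustment over the 21789 rows. Errors are the SD over 3 hearts or the moderated SE, precision being limited by the array number. Each p-value sets a difference against its moderated SE, which combines the row's spread between these hearts with that of the other rows. No 2 arrays held identical values.

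Members, role lists, pathway and marker lists were chosen with earlier results of these data known. Values in every heart are given for members at an unadjusted p below 0.05 and for a list of 20 cardiac genes whatever their values, of which some, Adrb1, Adra1a, Prkaca and Rapgef4 among them, had no row of their own and were not analysed here, and for pathway genes at an unadjusted p below 0.05. Adenosine receptors were also on that list and had no row of their own. Other genes are named by role. The fit was tested on simulated data. Alternatives were the replicate block, a further quantile normalization, median centring, a filter on dim rows, another variance prior, array weights, other rows in the fit, a looser threshold and leaving out each heart.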

Additional observations from a re-analysis of the deposited data

How the results depend on the processing

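Equal replicate numbers were not shown to pair hearts: deviations from the group means correlated at 0.16, -0.01 and -0.10 across rows, so the block is given here alone. With it the adjusted p of Pde3a was 0.115, that of Pkia 0.105 and that of Kcnq1 0.0921 (limma). The count of called members was small under every setting run. It was 0 with the replicate number as a block, 0 with all 28853 rows in the fit and 0 in each fit without 1 heart. It became 2 with a further quantile normalization, 2 with array weights, and 4 without the dimmest 40% of rows (of 44 left; 3.77% of rows in that fit were called), 4 with a trended and robust prior (2.66%) and 4 at an adjusted p below 0.10. All rows past the threshold numbered 209, against 97 with the replicate block, 493 without dim rows, 579 with the trended prior, 476 at 0.10, and 84 (without wild-type replicate 2) to 147 without 1 heart. The count of 2 called pathway genes became 0 with the replicate block and 0 with all rows, 1 with centred arrays, 4 without dim rows, 6 with the trended prior, and 0 to 1 without 1 heart. Members with separate groups numbered 19 to 25 without 1 heart, where fewer samples make separation easier, the highest count being without transgenic replicate 3. The share of all genes with separate groups was not computed for these fits, so these counts cannot be read against a background. The members' median became -0.045 without dim rows, which leaves 44 genes, and lay between -0.03 and -0.0008333 without 1 heart. Of 447 values for 32 named genes under the alternatives, 2 changed sign, both of Pde4b: 0.008056 after a further quantile normalization and 0.005 without transgenic replicate 1, in a range of -0.075 to 0.005 over the fits without 1 heart. The cause of these changes was not tested. With 3 hearts per group the number of arrays limits what can pass, and dim rows carry little signal over background. The marker mean without Acta2 was chosen after seeing the data.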

Other observations

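Rows annotated to a gene of the pathway together with another gene were kept out of the counts, and their values belong to both genes. The row of Pakap and Akap2 had log2 values of 9.55, 9.59 and 9.65 in transgenic hearts, against 9.82, 9.59 and 9.62 in wild-type hearts, overlapping at -0.08 ± 0.08 (SE). The row of Tmigd3 and Adora3, the gene of the adenosine A3 receptor, had 6.32, 6.26 and 6.44 in transgenic hearts, against 6.32, 6.2 and 6.13 in wild-type hearts, also overlapping, at 0.12 ± 0.08. The row of Samd1 and Prkaca stood at -0.09 ± 0.06 with separate groups, and limma, adjusting over all 28853 rows, called none of these rows (adjusted p = 0.708, 0.522 and 0.526, in the order given).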
